A study of Mus musculus with 8 samples.

Results

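Retinoid genes handle vitamin A and its active form, retinoic acid, and 9 of them were followed here through the cells of mouse inguinal white fat under 2 feeding schedules. The members were Bco1, Dhrs3, Aldh1a1, Aldh1a2, Aldh1a3, Cyp26b1, Rbp4, Rbp7 and Rarb. They were chosen by their gene symbols, each of which had 1 row among the 32285 genes of the count tables, and they were selected on these data, since the choice rested on the difference between the feeding groups in adipocyte progenitors (APCs), endothelial, mural and dendritic cells, in which Bco1, Rbp7 and Cyp26b1 changed. Values of the feeding contrast in those cells are therefore given as a description, without a test. Droplet-based single-cell RNA-seq was run on the stromal vascular fraction (SVF), the non-adipocyte cells freed from the inguinal depot by collagenase. All mice were C57BL/6, carried no transgene or deletion according to the labels, and were labelled 8 weeks old, whereas the text of the study describes older males kept for months on their schedule. The Ad-Lib group (4 libraries, numbered 1, 3, 5 and 7) had free access to food, and the TAN group (4 libraries, numbered 2, 4, 6 and 8) received 2 meals a night. The labels do not say whether a library came from 1 mouse or several, while the methods of the study treat the libraries of a group as separate mice, and the spread given here is that between libraries.

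Animals take up vitamin A as retinyl esters or as carotenoids from plants. Bco1 cleaves beta-carotene into retinal, Dhrs3 reduces retinal back to retinol, and the retinal dehydrogenases Aldh1a1, Aldh1a2 and Aldh1a3 oxidise retinal irreversibly to retinoic acid. Cyp26b1 hydroxylates retinoic acid and so ends its action, Rbp4 carries retinol in the blood, Rbp7 is a retinol-binding protein of the cytoplasm, and Rarb is a nuclear receptor that binds retinoic acid together with an RXR partner. In adipose tissue retinoids are stored beside triglyceride, Rbp4 is secreted by adipocytes, and retinoic acid is known to affect the differentiation of fat-cell precursors.

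Receptors of this class bind direct repeats of a 6-base element, and the distance between the repeats differs by receptor pair. RAR with RXR is known for repeats separated by 5 bases (DR5) or 2 bases (DR2), and PPAR with RXR for repeats separated by 1 base (DR1). The element AGGTCA and its variants (AGTTCA as well as GGGTCA and also GGTTCA) were searched at these spacings on both strands, together with TATAAA, in windows of 300 bases from 250 bases before to 50 after each gene's start in RefSeq (build GRCm38.p6). Of the 9 members, 8 had a window, and Aldh1a3 had no entry in the table used here. A DR5 repeat was present in the Rarb window and in none of the other members' windows, against 0.0975% of 32817 windows of all genes. A DR1 repeat was present in the Bco1 window alone among the members, against 0.222% of all windows. No member window held DR2, which 0.268% of all windows held. TATAAA was found in the windows of Bco1, Cyp26b1 and 1 of 2 windows of Rbp4, against 13.6% of all windows. A match is a run of letters and not a measured binding site. The Bco1 and Rarb windows are shown because they hold the receptor repeats, and the Cyp26b1 and Rbp7 windows because these genes, with Bco1, led to the choice of the members. All are written 5′ to 3′ on the transcribed strand, with each match in capitals.
Bco1, chr8:117095615-117095914, plus strand, with a DR1 repeat read on the opposite strand 56 to 44 bases before the start and TATAAA 28 to 23 bases before it: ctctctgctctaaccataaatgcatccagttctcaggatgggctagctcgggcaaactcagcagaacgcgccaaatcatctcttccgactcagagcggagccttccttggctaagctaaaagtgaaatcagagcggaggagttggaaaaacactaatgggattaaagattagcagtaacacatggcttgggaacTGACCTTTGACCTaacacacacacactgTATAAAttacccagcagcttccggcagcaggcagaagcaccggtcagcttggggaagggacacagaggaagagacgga
Rarb, chr14:16575427-16575726, minus strand, with a DR5 repeat 53 to 37 bases before the start: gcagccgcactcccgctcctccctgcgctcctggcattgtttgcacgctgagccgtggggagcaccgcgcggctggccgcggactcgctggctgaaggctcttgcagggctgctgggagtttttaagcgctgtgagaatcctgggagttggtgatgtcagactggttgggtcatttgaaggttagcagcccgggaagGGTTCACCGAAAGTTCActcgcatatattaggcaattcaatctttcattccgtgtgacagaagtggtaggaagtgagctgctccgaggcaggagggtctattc
Cyp26b1, chr6:84593761-84594060, minus strand, with TATAAA 139 to 134 bases before the start: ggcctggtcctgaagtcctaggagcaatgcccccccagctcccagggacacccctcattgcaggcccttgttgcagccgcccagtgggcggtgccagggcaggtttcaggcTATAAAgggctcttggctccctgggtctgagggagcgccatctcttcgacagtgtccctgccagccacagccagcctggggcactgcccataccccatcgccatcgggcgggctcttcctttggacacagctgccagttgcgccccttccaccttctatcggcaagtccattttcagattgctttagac
Rbp7, chr4:149454919-149455218, minus strand, with no match: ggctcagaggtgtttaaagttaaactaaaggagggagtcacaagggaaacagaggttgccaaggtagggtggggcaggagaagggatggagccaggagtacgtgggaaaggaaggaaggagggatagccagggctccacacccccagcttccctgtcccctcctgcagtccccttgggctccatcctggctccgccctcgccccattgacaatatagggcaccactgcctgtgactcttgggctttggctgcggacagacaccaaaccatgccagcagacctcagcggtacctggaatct

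In the mouse annotation (GENCODE M21, GRCm38) every member is protein coding. Bco1 (ENSMUSG00000031845) spans positions 117095854 to 117133720 of chromosome 8, Cyp26b1 (ENSMUSG00000063415) spans 84571414 to 84593908 of chromosome 6, and Rbp7 (ENSMUSG00000028996) spans 149449687 to 149454978 of chromosome 4. Rarb (ENSMUSG00000017491; chromosome 14, 16430839 to 16819156) overlaps Top2b on the opposite strand, which counting by strand keeps apart. Gm20694, a processed pseudogene on the same strand as Bco1, lies in a Bco1 intron, outside its exons, and has no row in the count tables. Aldh1a1 has a close relative, Aldh1a7, but no 50-base word in the last 500 bases of its longest transcript, where 3′ tags fall, was shared with it.

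The 8 libraries held 25320800 to 37140950 unique molecular identifiers (UMIs, counted transcripts), and 36370 of 44427 barcodes passed the filters. Cells were assigned to classes by marker genes, which placed 32467 cells. Every class used here had all genes of its own marker list detected. The libraries were not alike in makeup: T and B cells made up 2.60% to 23.7% of cells in the Ad-Lib libraries and 9.01% to 39.5% in the TAN libraries, and TAN 6 had the highest share. Barcodes found in 2 or more libraries numbered 174. Levels are given as UMIs of the gene per 1000000 UMIs of the class in 1 library (CPM). The same 8 libraries lie behind every class, so differences in separate classes are not independent.

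The members were highest in different cells of this tissue, with 3 of the 9 sharing a class. Aldh1a3, Bco1 and Rarb had their highest mean in Dpp4+ APCs (the Pi16 and Dpp4 positive progenitors of the interstitium), Cyp26b1 in Icam1+ APCs (the Icam1 and Col15a1 positive committed progenitors), Rbp7 in endothelial cells, Rbp4 in droplets with adipocyte markers, Dhrs3 in macrophages, Aldh1a1 in Schwann cells and Aldh1a2 in monocytes. These levels are means ± SD over the libraries with at least 10 cells of the class, both feeding groups together.

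**Figure D1:**
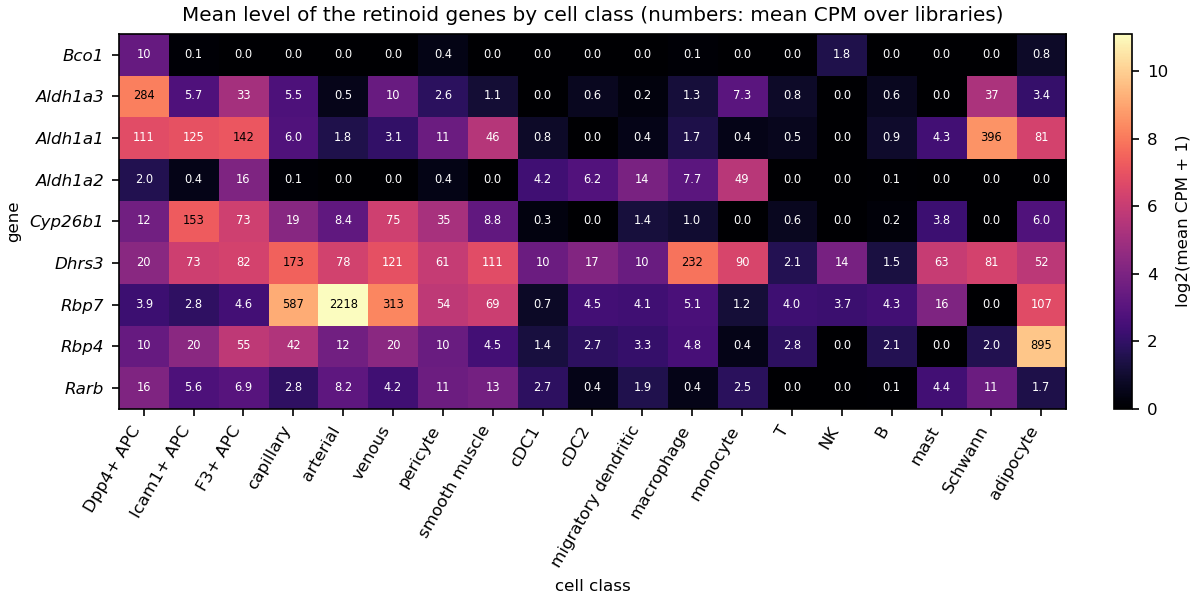
Mean level of the 9 retinoid genes (rows) in 19 cell classes (columns), as CPM averaged over libraries with at least 10 cells; colour shows log2(mean CPM + 1) and the numbers are the means. Rbp7 stands highest in arterial cells, Rbp4 in adipocyte-marker droplets, Aldh1a3 in Dpp4+ APCs and Cyp26b1 in Icam1+ APCs.

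Bco1 reached 9.53 ± 7.66 CPM in Dpp4+ APCs (SD, n = 8), and at most 4 UMIs in all were counted in any of the other 18 classes. Aldh1a3 stood at 284 ± 38.8 CPM in the same cells (n = 8), with Schwann cells next at 37.3 ± 24.6 CPM (n = 7) and F3+ APCs (the F3 and Gdf10 positive progenitors) at 33.2 ± 5.0 CPM (n = 8). Both genes thus marked the Dpp4+ subset, and Icam1+ APCs had only 5.74 ± 1.75 CPM of Aldh1a3 (n = 8). Aldh1a1 was spread over the 3 APC subsets, with 142 ± 34.8 CPM in F3+, 125 ± 33.9 in Icam1+ and 111 ± 12.8 in Dpp4+ APCs (n = 8 each), under the 396 ± 111 CPM of Schwann cells (n = 7).

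Aldh1a2 was a gene of monocytes (48.6 ± 26.9 CPM, 73 UMIs in 8 libraries) and of some F3+ APCs (15.6 ± 18.1 CPM, n = 8). In migratory dendritic cells Aldh1a2 had 8.80 to 23.4 CPM in libraries with at least 10 such cells. Libraries under that limit held 173 CPM in Ad-Lib 1 (9 UMIs in 4 cells) and 174 CPM in Ad-Lib 5 (8 UMIs in 3 cells). Ad-Lib 7 had 28.8 CPM and TAN 2 had 0 under the same limit, so the level of Aldh1a2 in migratory dendritic cells is not settled. Among F3+ APCs its level went from 1.29 CPM in TAN 8 to 55.1 CPM in TAN 6, so libraries of the same feeding group differed more than the groups did. Cyp26b1 stood at 153 ± 126 CPM in Icam1+ APCs, at 75.1 ± 58.3 in venous endothelium and at 73.4 ± 55.7 in F3+ APCs (n = 8 each). Dhrs3 was the most widely found member, from 232 ± 35.0 CPM in macrophages and 173 ± 40.3 in capillary endothelium down to 1.47 ± 1.02 CPM in B cells.

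Rbp7 formed a gradient along the vessel wall. Arterial endothelium had 2218 ± 785 CPM, capillary endothelium 587 ± 261 and venous endothelium 313 ± 208 (n = 8 each), and pericytes, the contractile support cells of capillaries, had 53.8 ± 45.4. Arterial exceeded capillary cells in 8 of 8 libraries, by 1.97 ± 0.24 on the log2(CPM + 1) scale (SD), and capillary exceeded venous cells in 8 of 8, by 0.97 ± 0.82. Rbp4 stood at 895 ± 166 CPM in adipocyte-marker droplets, and F3+ APCs came next at 55.3 ± 15.7 CPM (n = 8). Rarb was low everywhere, with 16.1 ± 5.60 CPM in Dpp4+ APCs, 12.9 ± 8.75 in smooth muscle and 10.8 ± 7.58 in pericytes (n = 8 each).

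Neighbours in these orders were compared over libraries with an exact two-sided sign-flip permutation test of log2(CPM + 1). Of 107 neighbouring pairs, 0 passed an adjusted p of 0.05 (Benjamini-Hochberg over the 107), the lowest being 0.0643, while 23 had an unadjusted permutation p under 0.05. With 8 libraries the smallest exact p is 0.0078, which 13 pairs reached and 17 would have had to reach for any to pass. The order of neighbouring classes is therefore a description. In 15 pairs the first class was higher in every library, among them the steps in Rbp7 from arterial to capillary and on to venous cells, Rbp4 from adipocyte-marker droplets to F3+ APCs and Dhrs3 from macrophages to capillary cells.

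The genes whose level over the 19 classes was most like that of a member are given by Pearson's r of mean log2(CPM + 1), over classes that share the same libraries and among 10896 genes of at least 20 CPM in some class. For Bco1 they were Cldn3 (r = 0.983), Mrgprg (r = 0.979), Duox1 (r = 0.973), Dmkn (r = 0.962) and Krtdap (r = 0.960), all highest in Dpp4+ APCs. For Rbp7 they were the endothelial genes Btnl9 (r = 0.987), Cyyr1 (r = 0.984), Podxl (r = 0.980), Depp1 (r = 0.978) and Cldn5 (r = 0.977). For Cyp26b1 they were Snai2 (r = 0.906), Gpx7 (r = 0.903), Acvr2a (r = 0.903), Fbln2 (r = 0.902) and Snai1 (r = 0.901).

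The feeding contrast was fitted over all genes of each class with edgeR on UMIs summed per library. A gene is said to have passed the threshold when its Benjamini-Hochberg adjusted p over all genes of the class was under 0.05 and its change at least 1.5-fold. Of all genes tested, 0.547% passed in Dpp4+ APCs, 1.49% in Icam1+ APCs, 0.2% in F3+ APCs, 2.19% in endothelial and 2.18% in mural cells, and 0% in dendritic cells. In the last, edgeR put 0 of 6027 genes past the threshold, with 452 at an unadjusted p under 0.05 and 1 past the threshold by DESeq2. Enough counts in the 4 libraries of 1 group sufficed for a fit, so a member could enter through its higher group alone. Of the 54 combinations of member and class, 32 had enough counts to be fitted and 7 of those 32 passed. That count restates how the members were chosen, and nothing is read from it. Among the fitted members, the libraries of the groups did not overlap for 1 in Dpp4+ APCs, 2 in Icam1+ APCs, 0 in F3+ APCs, 2 in endothelial and 1 in mural cells, beside 5.12%, 8.2%, 5.39%, 9.85% and 7.29% of all genes tested in those classes.

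**Figure D2:**
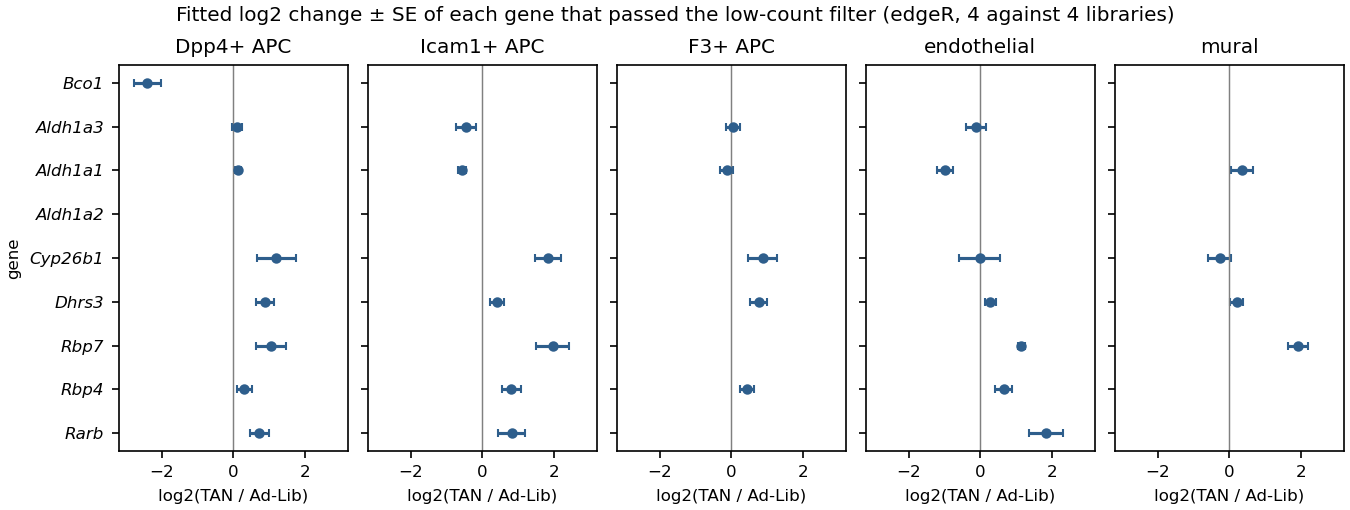
Fitted log2 change, TAN over Ad-Lib, with its SE (horizontal bars) for each member with enough counts in 5 cell classes; values right of 0 are higher in TAN. Bco1 in Dpp4+ APCs lies far to the left, and Rbp7 lies to the right in endothelial and mural cells.

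Bco1, the carotenoid-cleaving enzyme, was lower in Dpp4+ APCs of TAN mice. Its levels were 22.7, 15.7, 15.6 and 8.45 CPM in Ad-Lib 1, 3, 5 and 7, and 2.67, 3.05, 6.60 and 1.53 CPM in TAN 2, 4, 6 and 8. Every TAN library lay under every Ad-Lib library, with means of 15.6 ± 5.83 and 3.46 ± 2.19 CPM (SD, n = 4 each) and a fitted log2 change of -2.41 ± 0.38 (SE). A Bco1 UMI was detected in 139 of 3874 Dpp4+ APCs, of which 69 held at least 2, and at this depth a cell without a UMI may still express the gene. The share of cells with a UMI was 4.76 ± 1.67% in Ad-Lib and 1.26 ± 0.35% in TAN, and after thinning each cell to 2000 UMIs it was 2.27 ± 0.87% and 0.444 ± 0.099%. Thinning left out 184 Ad-Lib and 181 TAN cells of lower depth. In B cells, which should lack the gene, 0 of 2739 cells held a UMI.

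The level per cell was uneven. A single cell held up to 18 Bco1 UMIs in the Ad-Lib libraries, and in TAN 6 a single cell held 11 of the 12 UMIs counted. Of 8 epithelial markers, 2 were detected in Dpp4+ APCs (33.5 to 43.9 CPM in Ad-Lib, 36.5 to 57.2 in TAN). Cldn3, 1 of these 2, had 22.6 to 34.8 CPM in Ad-Lib and 22.1 to 33.4 CPM in TAN by itself. Dmkn was found in 69.1% of Bco1 cells against 31.7% of the others, Krtdap in 66.2% against 32.6%, and Cldn3 in 33.8% against 16.3%, at median depths of 9838 and 9255 UMIs. The other two genes most like Bco1 over classes differed less, with Mrgprg in 38.8% against 26.5% and Duox1 in 23.7% against 20.9%. These shares pool the cells of both feeding groups, of which Ad-Lib held most of the Bco1 cells and the higher means of Dmkn and Krtdap, and they are given as a description.

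The genes with the pattern of Bco1 over classes did not share its difference at the threshold, with 0 of 5 past it in edgeR. Dmkn had 288 ± 43.7 CPM in Ad-Lib and 193 ± 17.8 in TAN (log2 change -0.58 ± 0.13, adjusted p 0.0541), and Krtdap 243 ± 60.4 and 182 ± 22.8 (-0.43 ± 0.17, adjusted p 0.336). Cldn3, Mrgprg and Duox1 had log2 changes of -0.08 ± 0.16, 0.00 ± 0.31 and -0.11 ± 0.11, with adjusted p of 0.924, 1.00 and 0.777. Summed adipocyte markers in Dpp4+ APCs (10 of 10 detected) ran from 31.9 to 63.2 CPM in Ad-Lib and from 31.4 to 76.8 in TAN. Summed macrophage markers (8 of 8) were lower in TAN, at 21.3 to 32.8 against 33.9 to 49.95 CPM, and their part in the Bco1 difference was not tested.

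**Figure D3:**
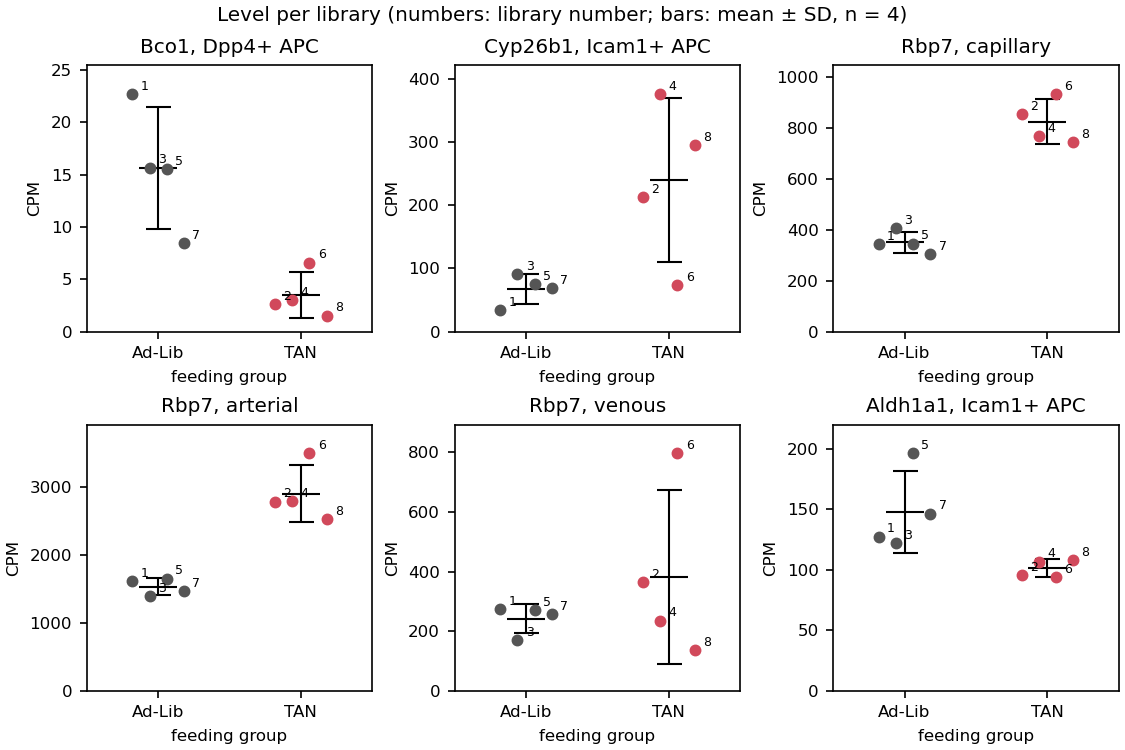
CPM of 4 retinoid genes in each library, as points marked with the library number, in 6 combinations of gene and cell class; black bars show the mean ± SD of 4 libraries per group. Bco1 in Dpp4+ APCs and Rbp7 in capillary and arterial cells separate the groups completely, while Cyp26b1 in Icam1+ APCs overlaps through TAN 6 and Rbp7 in venous cells through TAN 4 and TAN 8.

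Dhrs3, which turns retinal back to retinol, had higher means in TAN in all 3 APC subsets, with overlapping libraries. In Dpp4+ APCs it had 7.62, 17.6, 19.2 and 14.7 CPM in Ad-Lib 1, 3, 5 and 7 and 33.2, 25.7, 14.9 and 25.4 CPM in TAN 2, 4, 6 and 8 (log2 change 0.89 ± 0.25). Only TAN 6 fell within the Ad-Lib range there. The log2 change was 0.41 ± 0.20 in Icam1+ APCs, 0.76 ± 0.25 in F3+ APCs, 0.28 ± 0.16 in endothelial, 0.21 ± 0.18 in mural and -0.15 ± 0.35 in dendritic cells.

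Among the retinal dehydrogenases, Aldh1a1 was lower in TAN in 2 classes. In Icam1+ APCs it had 127, 122, 196 and 146 CPM in Ad-Lib 1, 3, 5 and 7 and 95.3, 107, 94.0 and 108 CPM in TAN 2, 4, 6 and 8. The groups did not overlap, and the fitted log2 change was -0.57 ± 0.11, just under the 1.5-fold limit. In endothelial cells, where 134 UMIs were counted in Ad-Lib and 68 in TAN, it had 7.62, 5.06, 9.41 and 7.47 CPM in Ad-Lib and 3.79, 3.44, 2.84 and 4.55 CPM in TAN (log2 change -0.98 ± 0.23), again without overlap. Levels in the other subsets were close, with log2 changes of 0.13 ± 0.08 in Dpp4+, -0.13 ± 0.18 in F3+ APCs and 0.36 ± 0.30 in mural cells. Beside this, summed APC markers in endothelial cells ran from 142 to 265 CPM in Ad-Lib and from 96 to 159 CPM in TAN, and their part in the Aldh1a1 difference there was not tested. In endothelial cells without a UMI of the adipocyte genes Adipoq, Cidec or Car3, Aldh1a1 stood at 0.93 to 3.97 CPM in Ad-Lib and 0 to 2.61 CPM in TAN, with overlap. The TAN mean was still the lower there, at 1.14 ± 1.10 against 2.70 ± 1.48 CPM in Ad-Lib (SD, n = 4 each).

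Aldh1a3, the dehydrogenase of Dpp4+ APCs, had nearly the same level in both groups, 273 ± 48.7 CPM in Ad-Lib and 296 ± 28.1 in TAN (n = 4 each, log2 change 0.11 ± 0.14). So 2 genes with the same preferred cells, Bco1 and Aldh1a3, had log2 changes of -2.41 and 0.11 in those cells. Aldh1a3 changed by -0.45 ± 0.27 in Icam1+, 0.05 ± 0.19 in F3+ APCs and -0.13 ± 0.28 in endothelial cells. Aldh1a2 had too few counts for a fit in all 6 classes. In dendritic cells 31 UMIs were counted in Ad-Lib and 34 in TAN, at 7.32 to 16.9 and 2.29 to 15.9 CPM, and the share of migratory dendritic cells there went from 5.97% to 41.0% in Ad-Lib and from 5.71% to 72.4% in TAN, whose part in these levels was not tested. In Dpp4+ APCs, with 68 UMIs in all, Aldh1a2 had 2.26, 1.48, 0.24 and 8.45 CPM in Ad-Lib 1, 3, 5 and 7 and 0, 0, 3.30 and 0.31 CPM in TAN 2, 4, 6 and 8. The groups overlapped, with TAN 6 above 3 of the 4 Ad-Lib libraries.

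Cyp26b1, which degrades retinoic acid, was higher in Icam1+ APCs of 3 TAN libraries. Its levels were 34.2, 90.8, 74.9 and 68.6 CPM in Ad-Lib 1, 3, 5 and 7 and 213, 377, 73.0 and 296 CPM in TAN 2, 4, 6 and 8. TAN 6 lay inside the Ad-Lib range, and the means were 67.1 ± 23.9 and 240 ± 130 CPM (SD, n = 4 each) with a log2 change of 1.84 ± 0.37. Without TAN 6 the fitted log2 change was 2.13. Cells with a UMI made up 21.3 ± 5.74% of Icam1+ APCs in Ad-Lib and 40.0 ± 16.9% in TAN, and 9.12 ± 2.98% and 24.5 ± 10.3% after thinning to 2000 UMIs, against 3 of 2739 B cells.

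The low libraries recurred in some classes. Ad-Lib 1 was the lowest Ad-Lib library in Icam1+, Dpp4+ and F3+ APCs and in capillary and venous cells, and TAN 6 was the lowest TAN library in all 5. In mural cells the lowest were instead Ad-Lib 5 (28.1 CPM) and TAN 8 (8.05 CPM), in pericytes Ad-Lib 7 (0 CPM) and TAN 8 (5.76 CPM), and in arterial cells Ad-Lib 7 (3.62 CPM) and TAN 6 (0 CPM). In Dpp4+ APCs the levels were 0.36, 13.3, 9.73 and 9.19 CPM in Ad-Lib and 14.1, 20.6, 4.40 and 24.2 CPM in TAN (log2 change 1.20 ± 0.54). In F3+ APCs they were 26.8, 51.9, 88.8 and 37.9 CPM in Ad-Lib and 78.9, 191, 16.8 and 95.1 CPM in TAN (0.88 ± 0.40). In vessels the groups had nearly equal means, with 24.2 ± 20.9 and 23.4 ± 15.96 CPM in endothelial cells (-0.01 ± 0.57) and 35.0 ± 9.74 and 29.1 ± 15.3 CPM in mural cells (-0.26 ± 0.32). The difference between progenitor and vascular changes was not tested. Adipocyte markers in Icam1+ APCs (10 of 10 detected) were 85.6 to 132 CPM in Ad-Lib and 109 to 135 CPM in TAN. Mural markers (10 of 10) were 69.9 to 96.0 and 98.8 to 118 CPM, without overlap, and their part in the Cyp26b1 difference was not tested.

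None of the 5 genes most like Cyp26b1 over classes passed the threshold in Icam1+ APCs in edgeR. Snai2 had the largest of their changes, with 38.9 ± 7.55 CPM in Ad-Lib and 53.3 ± 5.24 in TAN (log2 change 0.42 ± 0.11, adjusted p 0.0608). Gpx7, Acvr2a, Fbln2 and Snai1 had log2 changes of 0.01, -0.08, 0.12 and 0.12, with adjusted p of 0.989, 0.856, 0.741 and 0.788.

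Rbp7, the cytoplasmic retinol-binding protein, was higher in endothelium of every TAN library. In all endothelial cells it had 436, 483, 512 and 457 CPM in Ad-Lib 1, 3, 5 and 7 and 1027, 956, 1237.5 and 896.5 CPM in TAN 2, 4, 6 and 8. The groups did not overlap, with means of 472 ± 32.9 and 1029 ± 149 CPM (SD, n = 4 each) and a fitted log2 change of 1.15 ± 0.10. The difference was present within vessel types. Capillary cells had 343, 407, 345 and 305 CPM in Ad-Lib and 854, 767, 933 and 744 CPM in TAN, and arterial cells had 1620, 1390, 1653 and 1472 CPM in Ad-Lib and 2786, 2789, 3502 and 2529 CPM in TAN. Both were without overlap. Venous cells, of which there were only 298, had 273, 170, 270 and 257 CPM in Ad-Lib and 365, 236, 798 and 135 CPM in TAN, with overlap.

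The mix of vessel types differed little between groups. Capillary cells made up 58.6 ± 4.81% of endothelial cells in Ad-Lib and 60.02 ± 2.78% in TAN, and arterial cells 6.51 ± 1.90% and 7.33 ± 0.46% (SD, n = 4). More cells carried the transcript: 45.7 ± 3.30% of capillary cells held an Rbp7 UMI in Ad-Lib and 66.9 ± 3.31% in TAN, at mean median depths of 3537 and 3544 UMIs. After thinning to 2000 UMIs, which left out 604 and 667 cells, the shares were 34.8 ± 2.55% and 56.2 ± 4.74%. B cells had 1.18 ± 1.91% and 1.38 ± 0.66%, at 4184 and 3486 UMIs, and 0.201 ± 0.232% and 0.824 ± 0.509% after thinning.

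Adipocyte transcripts were common in endothelial droplets, of which 68.9% held a UMI of Adipoq, Cidec or Car3 (an adipocyte UMI in what follows). Summed adipocyte markers (10 of 10 detected) overlapped between groups, at 1215 to 1472 CPM in Ad-Lib and 994 to 1817 CPM in TAN. Among endothelial cells without such a UMI, Rbp7 stood at 641 ± 101 CPM in Ad-Lib and 1334 ± 308 in TAN, again without overlap. The 10 endothelial markers themselves were lower in TAN, at 9277 to 9842 against 10036 to 11084 CPM. Of the 5 genes most like Rbp7 over classes, among which Btnl9 and Cldn5 also served as gate markers, Cyyr1 rose (479 ± 70.6 to 732 ± 77.8 CPM, log2 change 0.64 ± 0.10, adjusted p 0.00211) and Depp1 rose (117 ± 36.1 to 202 ± 17.5 CPM, 0.82 ± 0.15, adjusted p 0.00619) in edgeR. Btnl9 (0.22 ± 0.10, adjusted p 0.265), Podxl (0.36 ± 0.11, adjusted p 0.0873) and the tight junction gene Cldn5 (-0.63 ± 0.18, adjusted p 0.0649) did not pass.

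Rbp7 also had higher means in TAN in mural cells and in APCs, where its level was low. Mural cells had 12.5, 37.4, 28.1 and 16.95 CPM in Ad-Lib and 110, 60.5, 87.3 and 90.5 CPM in TAN (log2 change 1.92 ± 0.27), and Icam1+ APCs had 0.28, 0.82, 2.50 and 0.84 CPM in Ad-Lib and 2.40, 3.8, 6.39 and 5.57 CPM in TAN (1.97 ± 0.46). In all Icam1+ APCs the groups overlapped, with Ad-Lib 5 above TAN 2. Without Ad-Lib 5 the log2 change there was 2.70, and among Icam1+ APCs without an adipocyte UMI the groups did not overlap (0.16 to 0.87 against 1.48 to 7.33 CPM). Dpp4+ APCs had a log2 change of 1.05 ± 0.42, with overlap. F3+ APCs had too few counts for a fit, at 0.81, 1.79, 0 and 1.43 CPM in Ad-Lib and 3.95, 6.91, 21.6 and 0 CPM in TAN. These rest on few counts, 25 and 59 UMIs in Icam1+ APCs against 8489 and 19014 in endothelial cells.

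Endothelial transcripts were present in the same classes, and the ratio of Rbp7 to the summed 10 endothelial markers varied among them. Per 100 CPM of endothelial markers, endothelial cells had 4.47 ± 0.41 CPM of Rbp7 in Ad-Lib and 10.8 ± 1.68 in TAN. Mural cells had 4.26 ± 1.87 and 15.3 ± 4.77, Icam1+ APCs 2.84 ± 0.74 and 8.57 ± 2.91, and macrophages 3.59 ± 1.75 and 8.88 ± 2.41 (SD, n = 4 each). Dpp4+ APCs had 7.29 ± 3.57 and 14.9 ± 4.99, and adipocyte-marker droplets 10.3 ± 2.48 and 24.1 ± 8.996. F3+ APCs had 4.88 ± 4.32 and 7.43 ± 5.43, with overlap (0 to 8.70 against 0 to 12.9). T cells had 7.57 ± 10.03 and 6.15 ± 2.64, and B cells 4.26 ± 6.81 and 4.05 ± 3.22. Both of these Ad-Lib means rest on Ad-Lib 1, which stood at 22.2 in T cells from 4 Rbp7 UMIs and at 14.3 in B cells from 1 UMI, whereas the other 3 Ad-Lib libraries ran from 0 to 5.56 and from 0 to 2.74, so no direction is read there. The marker sum itself overlapped between groups in mural cells, at 521 to 594 CPM in Ad-Lib and 460 to 734 in TAN. Adipocyte markers in mural cells were higher in TAN, at 361 to 675 against 227 to 319 CPM, as were the 6 pericyte markers, at 3892 to 4566 against 2967 to 3324 CPM. In mural cells without an adipocyte UMI, Rbp7 had 14.9 to 31.9 CPM in Ad-Lib and 23.8 to 110 CPM in TAN, which overlap, and the log2 change was 1.25. With clusters in place of marker gates it was 0.93. How much of the Rbp7 in these classes was made by the cells themselves was not tested.

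**Figure D4:**
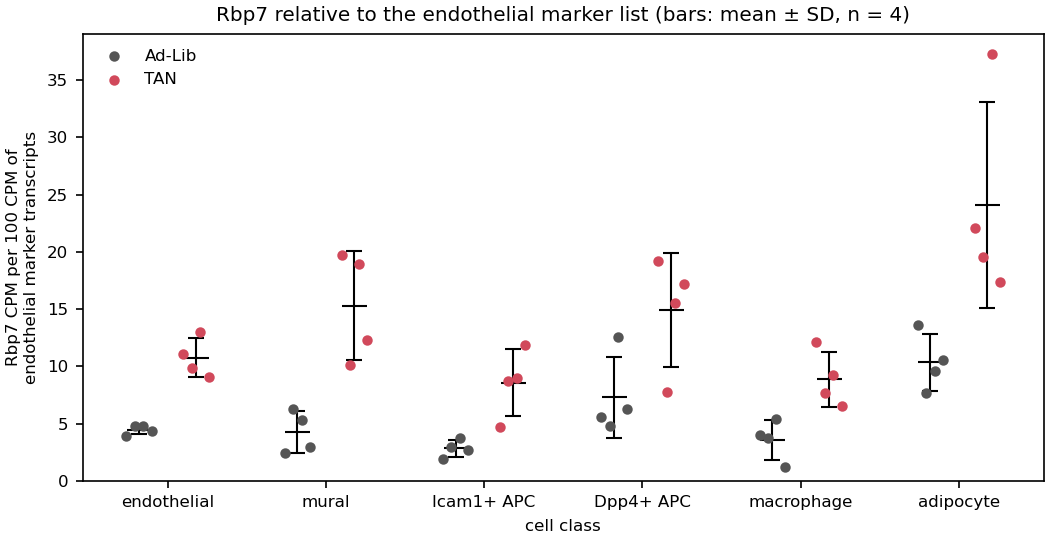
Rbp7 CPM per 100 CPM of 10 summed endothelial marker genes, in 6 cell classes; points are libraries (4 Ad-Lib in grey, 4 TAN in red) and black bars the mean ± SD. Every TAN library lies above every Ad-Lib library in 5 of the 6 classes, with overlap in Dpp4+ APCs, and the TAN means run from 8.57 in Icam1+ APCs to 24.1 in adipocyte-marker droplets. Among classes not drawn, the groups overlap in F3+ APCs, T cells and B cells, and do not in capillary cells and pericytes.

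Rbp4, the retinol carrier of adipocytes, was measured beside the adipocyte transcript Car3, and the part of adipocyte transcripts in its levels was not tested. In adipocyte-marker droplets there were 4.53 ± 0.82 CPM of Rbp4 per 100 CPM of Car3 (SD, n = 8). The ratio was 3.70 ± 0.78 in endothelial cells, 3.44 ± 1.49 in mural cells and 3.87 ± 1.34 in macrophages, and in endothelial cells without an adipocyte UMI the Rbp4 level was 3.59 ± 1.75 CPM in Ad-Lib and 6.91 ± 3.96 in TAN, against 28.4 ± 6.36 and 42.8 ± 16.5 in all. APCs stood apart, with 29.9 ± 15.4 per 100 in Dpp4+, 45.2 ± 17.4 in Icam1+ and 192 ± 107 in F3+ APCs. In F3+ APCs without an adipocyte UMI Rbp4 stood at 46.9 ± 11.0 CPM in Ad-Lib and 67.0 ± 11.7 in TAN. Its levels in Icam1+ APCs were 15.8, 12.7, 9.99 and 16.7 CPM in Ad-Lib and 23.3, 16.7, 47.0 and 18.5 CPM in TAN (log2 change 0.80 ± 0.26), where the lowest TAN library lay barely above the highest Ad-Lib library. In F3+ APCs the log2 change was 0.43 ± 0.19, in Dpp4+ APCs 0.31 ± 0.21 and in endothelial cells 0.65 ± 0.25, with overlap in all 3.

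Rarb, the receptor whose promoter window holds the DR5 repeat shown above, had higher means in TAN in the 3 classes where it could be fitted. In Dpp4+ APCs it had 5.59, 15.5, 18.7 and 11.2 CPM in Ad-Lib and 18.9, 17.9, 17.1 and 24.2 CPM in TAN (log2 change 0.72 ± 0.26). Ad-Lib 5 lay within the TAN range. In Icam1+ APCs it had 1.57, 4.31, 6.07 and 4.55 CPM in Ad-Lib and 5.76, 11.7, 3.2 and 7.35 CPM in TAN (0.82 ± 0.37). In endothelial cells, with 29 and 105 UMIs, it had 1.09, 2.99, 1.97 and 0.28 CPM in Ad-Lib and 4.66, 8.17, 2.27 and 7.67 CPM in TAN (1.84 ± 0.47), where TAN 6 lay within the Ad-Lib range. Within arterial cells the 3 Ad-Lib and 20 TAN UMIs did not overlap between groups (0 to 8.27 against 10.03 to 18.7 CPM), whereas they overlapped in capillary cells (0.50 to 2.56 against 1.99 to 6.93 CPM) and in venous cells (0 to 4.46 against 0 to 15.5 CPM). Among endothelial cells without an adipocyte UMI the means were 1.32 ± 1.76 and 7.15 ± 3.96 CPM. Cyp26b1 and Rarb are both genes known to be induced by retinoic acid, and TAN 6 had the lowest TAN level of each in Icam1+ APCs. There TAN 6 was also the lowest TAN library for Aldh1a1 (94.0 CPM), Aldh1a3 (2.74 CPM) and Dhrs3 (53.9 CPM), and the highest for Rbp4 and Rbp7. Its median depth was the lowest of all libraries, at 3925.5 UMIs. In mural cells TAN 6 had the highest TAN level of Rarb, at 15.9 CPM. What lay behind these levels was not tested.

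The classes that played no part in choosing the members allow a test. There, 10 combinations of member and class had enough counts, and 0 passed the threshold by edgeR or by DESeq2, with 3 at an unadjusted p under 0.05 by either tool. All genes passed at 0.629% in macrophages, 7.3% in adipocyte-marker droplets and 2.06% in T cells, and at 0% in B cells, monocytes and Schwann cells (edgeR, with 175, 113 and 64 genes at an unadjusted p under 0.05, and 0, 2 and 0 past the threshold by DESeq2). Dhrs3 in macrophages, its highest class, had 233 ± 33.2 CPM in Ad-Lib and 231 ± 41.9 in TAN (edgeR log2 change 0.00 ± 0.11, adjusted p 0.995). Rbp7 in adipocyte-marker droplets had 75.8 ± 16.1 and 138 ± 51.8 CPM (0.76 ± 0.27, adjusted p 0.0817), and in macrophages 2.46 ± 1.49 and 7.75 ± 4.95 CPM (1.52 ± 0.45, adjusted p 0.112). Rbp4 in adipocyte-marker droplets had 772 ± 108 and 1019 ± 107 CPM, with each TAN library above each Ad-Lib library (0.34 ± 0.14, adjusted p 0.127). Aldh1a1 in Schwann cells had 418 ± 115 and 367 ± 123 CPM (-0.21 ± 0.31, adjusted p 0.92), and Aldh1a2 in macrophages had 8.10 ± 1.82 and 7.25 ± 0.69 CPM (-0.12 ± 0.22, adjusted p 0.877).

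A list of 51 other retinoid genes was tested in the same fits, and in the 6 classes of the rule 4 of its genes passed in 1 class each. In Dpp4+ APCs 27 of the 51 had enough counts, and 1 was higher and 0 lower in TAN; their median log2 change was 0.08, against 0.00 over all genes. That count was 0 without any 1 of Ad-Lib 5, TAN 2 or TAN 4, and without Ad-Lib 3 or TAN 8 the 1 gene that passed was a different one. By DESeq2 2 list genes passed in these cells. Tgm2, a transglutaminase induced by retinoic acid, had 4.44 ± 0.34 CPM in Ad-Lib and 1.62 ± 0.97 in TAN (-1.41 ± 0.33, edgeR adjusted p 0.0643).

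In Icam1+ APCs 26 list genes were tested and 0 passed by edgeR, with 6 at an unadjusted p under 0.05 and 1 past the threshold by DESeq2. Nrip1, a corepressor of nuclear receptors, had 195 ± 44.3 CPM in Ad-Lib and 134 ± 15.4 in TAN (log2 change -0.57 ± 0.12, edgeR adjusted p 0.0244), and Rarres2, the gene of the adipokine chemerin, had 1385 ± 128 and 1847 ± 70.6 CPM (0.39 ± 0.09, edgeR adjusted p 0.0302). Both changes were under 1.5-fold. In F3+ APCs 0 of 18 passed by edgeR or DESeq2, with 3 at an unadjusted edgeR p under 0.05. Nrip1 had 254 ± 80.3 and 181 ± 32.8 CPM there (-0.53 ± 0.19, edgeR adjusted p 0.34).

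In endothelial cells 29 list genes were tested, and 0 were higher and 3 lower in TAN, with a median log2 change of -0.04 against 0.00 over all genes. Adh1, an alcohol dehydrogenase that oxidises retinol, fell from 57.9, 56.4, 91.5 and 82.5 CPM in Ad-Lib to 22.4, 23.4, 41.4 and 33.8 CPM in TAN (log2 change -1.25 ± 0.17, edgeR adjusted p 0.00102). Rarres1, named for its induction by retinoids, fell from 15.1 to 16.2 CPM across Ad-Lib libraries to 7.38 to 10.8 CPM across TAN libraries (-0.77 ± 0.15, edgeR adjusted p 0.00813). Rarres2 fell from 47.0 ± 10.5 to 27.1 ± 4.77 CPM (-0.76 ± 0.18, edgeR adjusted p 0.0289). Without cells holding an adipocyte UMI the Rarres2 change was -0.32 and did not pass, and in adipocyte-marker droplets Rarres2 fell from 401 ± 40.2 to 135 ± 37.6 CPM (-1.67 ± 0.18, edgeR adjusted p 6.01e-07). The Rarres2 call in endothelial cells was also lost without any 1 of Ad-Lib 1, Ad-Lib 3, TAN 2, TAN 6 or TAN 8, whereas Adh1 passed in 15 of 15 settings and Rarres1 in the 14 where it was fitted, which do not include the removal of cells with an adipocyte UMI. The summed APC markers in endothelial cells given above were lower on average in TAN (124 against 210 CPM, with overlap). Rarres2 was abundant in all 3 APC subsets, and Adh1 was higher than in endothelial cells in Icam1+ and F3+ APCs but lower in Dpp4+ APCs. The part of those transcripts in the falls of Adh1, Rarres1 and Rarres2 was not tested. DESeq2 also put 3 list genes past the threshold there.

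Adh1 had like levels in both groups of progenitors, with 180 ± 26.7 and 179 ± 40.2 CPM in Icam1+ APCs (log2 change -0.04 ± 0.12, edgeR adjusted p 0.93) and 28.3 ± 4.31 and 28.3 ± 2.91 CPM in Dpp4+ APCs (0.01 ± 0.11, edgeR adjusted p 0.991). In mural cells 0 of 16 list genes passed by edgeR or DESeq2, with 5 at an unadjusted p under 0.05 by either tool. Rara, the receptor most widely expressed of its family, had 18.7 ± 5.33 and 37.3 ± 8.66 CPM there without overlap (0.88 ± 0.29, edgeR adjusted p 0.108), and Tgm2 had 44.4 ± 11.6 and 26.7 ± 4.33 CPM (-0.76 ± 0.26, edgeR adjusted p 0.144). In dendritic cells 0 of 12 passed by edgeR or DESeq2, with 1 at an unadjusted p under 0.05 by either tool. It was Scarb1, a carotenoid and lipoprotein receptor, with 28.6 ± 9.47 and 14.8 ± 7.63 CPM (-0.99 ± 0.37, edgeR adjusted p 0.652), and Rara came next (-0.64 ± 0.41, edgeR adjusted p 0.66).

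By role, the receptors and corepressors gave 0 of 6 or 7 tested genes past the threshold in each of the 6 classes, and the other catabolic enzymes, Cyp26a1 and Cyp26c1, had too few counts in all of them. The retinol and retinal oxidoreductases gave 0 of 10 in Dpp4+ APCs, 0 of 9 in Icam1+ APCs and 1 of 9 in endothelial cells, the last being Adh1. Genes responsive to retinoic acid gave 0 of 5 in Dpp4+ APCs, 0 of 5 in Icam1+ APCs and 2 of 6 in endothelial cells, both lower. In adipocyte-marker droplets 2 of 13 passed, with Rarres2 lower and Fabp5, a lipid chaperone that can bring retinoic acid to a receptor, higher.

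**Figure D5:**
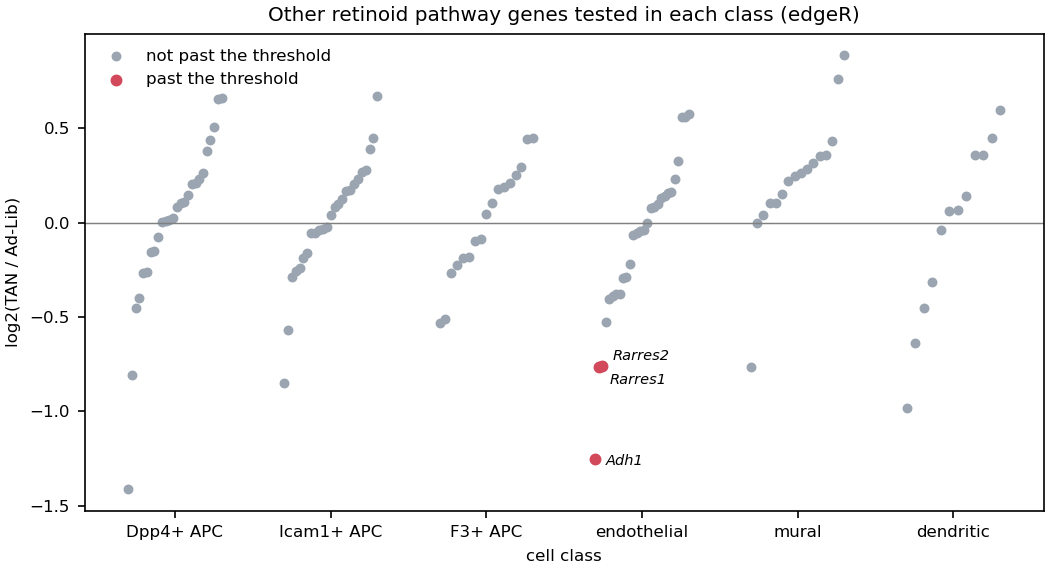
Fitted log2 change, TAN over Ad-Lib, of the other retinoid genes reported here that had enough counts (grey points, sorted within a class), in 6 cell classes; red points passed the threshold of adjusted p under 0.05 and 1.5-fold. The red points are Adh1, Rarres1 and Rarres2, which were lower in TAN in endothelial cells.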

How the data were processed

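Single-cell libraries (10x 3′ v3) were made from the SVF of inguinal fat of 4 Ad-Lib and 4 TAN samples. The deposited matrices hold raw UMI counts per gene and cell barcode, made by the authors with Cell Ranger from exonic reads on mm10 (GRCm38). The file headers give version 6.0.1 and the submitters' processing notes 3.0.2, and the annotation is not given in the sources used here. The limits of the study's methods were applied: 700 to 30000 UMIs, 200 to 8000 genes and at most 10% mitochondrial UMIs. These leave more cells than the methods of the study state, and no doublet caller was run. A cell entered a lineage when at least 3 of its markers were detected and the next lineage scored at most 0.6 of the best (subsets: at least 2 markers and 0.8), and 2203 cells lay near the lineage limit. Neither gates nor clusters used the 9 members. Counts were summed per library and class (at least 10 cells, at least 3 libraries a group) and fitted over all genes with edgeR 4.0.16 in R 4.3.3, by the quasi-likelihood test with TMM scaling, filterByExpr and Benjamini-Hochberg adjustment, a procedure tested on simulated counts. DESeq2 1.42.0, other scaling, no low-count filter, clusters from scanpy 1.11.5, a limit of 20% mitochondrial UMIs, removal of cells with an adipocyte UMI, a pseudocount of 10 in place of 1 and leaving out each library were alternatives. The p-values measure the spread between samples, which may be technical in part, and shares of cells carry counting error as well. The members and lists were chosen with earlier results of these data known. Named genes were the members, each list gene past the threshold, the 2 list genes of lowest p per class and the 5 genes most like Bco1, Rbp7 and Cyp26b1 over classes, except that 1 gene of the list enters its counts and medians but is not reported here by name or value. Gene IDs matched GENCODE M21 for 32158 of 32285 rows.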

Additional observations from a re-analysis of the deposited data

Results flagged for a closer look

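Of 64 groups of 4 libraries, 3 held a library far from the other 3 by Dixon's criterion, which chance gives in about 1 of 20 groups. In Dpp4+ APCs, Rbp4 stood at 7.66 CPM in TAN 8 against 11.6 to 11.9 CPM in the other TAN libraries. In the same cells Rbp7 stood at 5.84 CPM in Ad-Lib 5 against 1.48 to 1.99 CPM in the other Ad-Lib libraries. In mural cells Dhrs3 stood at 55.6 CPM in TAN 6 against 87.0 to 92.9 CPM in the other TAN libraries.

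Rarres2 differed between the feeding groups in opposite directions by cell class, and among the 6 classes of the rule it passed the threshold in endothelial cells. Every TAN library lay above every Ad-Lib library in Dpp4+ APCs (log2 change 0.23), Icam1+ APCs (0.39) and mural cells (0.35), and every TAN library lay below every Ad-Lib library in endothelial cells (-0.76). In adipocyte-marker droplets Rarres2 was also lower in TAN (log2 change -1.67, edgeR adjusted p 6.01e-07). By edgeR the adjusted p was 0.163 in Dpp4+ APCs, 0.0302 in Icam1+ APCs, where the change was under 1.5-fold, 0.15 in mural cells and 0.0289 in endothelial cells. The endothelial call was lost in 6 of 15 settings, and without cells holding an adipocyte UMI its log2 change was -0.32. Groups without overlap were found for 5.12%, 8.2%, 7.29% and 9.85% of all genes tested in these 4 classes. The difference between these classes was not tested.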

How the results depend on the processing

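No paired analysis was possible because the groups share no replicate numbers. The changes of the members in the 6 classes of the rule gave 438 alternative values for 32 results. Of these, 435 moved by less than the spread between replicates, 0 were counted as reversed, and 3 moved: Rbp7 in Icam1+ APCs without Ad-Lib 5 (2.70 against 1.97), and Rbp7 in mural cells with clusters (0.93 against 1.92) and without cells holding an adipocyte UMI (1.25). Within that spread, some small changes still took the other sign when 1 library was left out. In F3+ APCs these were Aldh1a1 (-0.13, up to 0.08) and Aldh1a3 (0.05, down to -0.06). In endothelial cells they were Aldh1a3 (-0.13, up to 0.08) and Cyp26b1 (-0.01, up to 0.67). The others were Cyp26b1 in mural cells (-0.26, up to 0.09) and Dhrs3 in dendritic cells (-0.15, up to 0.08). For the other retinoid genes, the count past the threshold in Dpp4+ APCs was 1, with 3 under no low-count filter, 2 by DESeq2 and 0 to 2 when 1 library was left out (2 without TAN 6). In Icam1+ APCs it was 0, with 1 under no low-count filter, by DESeq2 and without cells holding an adipocyte UMI, and 0 to 3 with 1 library left out (3 without TAN 6). In endothelial cells it was 3, and 1 without cells holding an adipocyte UMI. In mural cells it was 0, and 0 to 1 with 1 library left out (1 without Ad-Lib 1). Of the members outside the rule, 0 passed in macrophages, with 1 under no low-count filter, 1 with clusters and 0 to 1 with 1 library left out, and 0 in adipocyte-marker droplets, with 0 to 1 (both 1 without TAN 8). Of the neighbouring pairs of classes 0 of 107 differed, with 29 of 61 under clusters and 17 of 102 without cells holding an adipocyte UMI. The count over all genes ranged under single-library removal from 6 to 117 in Dpp4+ APCs (58 in the fit of all libraries), 90 to 170 in Icam1+ APCs (164), 0 to 35 in F3+ APCs (16), 151 to 272 in endothelial (241), 64 to 203 in mural cells (141), 17 to 71 in macrophages (62), 119 to 162 in adipocyte-marker droplets (160), 1 to 1035 in T cells (180), 0 to 1 in dendritic and Schwann cells (0 in both) and 0 throughout in B cells and monocytes. Under no low-count filter it was 163, 249, 232, 366, 232 and 203 in the first 4 classes, mural cells and macrophages, 644 in T cells, 71 in monocytes, 6 in dendritic and 1 in B cells. By DESeq2 it was 38 in F3+ APCs, 78 in mural, 322 in T and 1 in dendritic cells and 2 in monocytes, and with clusters 41 in F3+ APCs, 68 in mural cells and 33 in macrophages. Without cells holding an adipocyte UMI it was 65 in endothelial cells, 25 in mural cells and 30 in macrophages. The cause of these shifts was not tested. Depth limits Aldh1a2, Rarb and the Rbp7 of APCs, which rest on few UMIs per group, and Bco1, which rests on 37 UMIs in TAN.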
